A study of Mus musculus with 12 samples.

Results

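Kupffer cells are the resident macrophages of the liver, and 38 genes that mark them or macrophages in general were read in whole livers of newborn mice with and without the nuclear receptor PPARα. The genes were taken from a list of symbols, and for each the probe set that names it alone was used. The array gave a value for 37 of the 38, out of 19938 genes measured in all, and each of the 37 was read from its only such probe set. *Slc11a1* was not analysed here. The livers came from suckling pups at postnatal day 2 (P2), 6 *Ppara*-/- and 6 *Ppara*+/+, each with 3 males and 3 females. Both genotypes were born to heterozygous parents, so wild-type and knock-out pups could share a litter and a dam's milk. Every pup is labelled as strain SV129, whereas the study's methods describe a C57BL/6 background. The deletion is present in the whole body, so in these pups hepatocytes and macrophages both lack the receptor. The comparison asks how macrophage transcripts of the suckling liver differed when PPARα was absent.

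Kupffer cells line the liver sinusoids, where they take up bacteria, worn red cells, lipoprotein particles and apoptotic cells from portal blood. They descend largely from yolk sac and fetal liver precursors, settle before birth and depend on signalling through the receptor CSF1R. Lineage factors such as PU.1 and SPIC shape their transcription, and their surface carries scavenger, complement and Fc receptors. PPARα is best known in hepatocytes as the lipid-sensing activator of fatty acid oxidation, and it has also been described as a brake on inflammatory genes in macrophages.

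The 12 arrays had similar signal distributions, with medians from 7.16 to 7.20 on the log2 scale of the robust multi-array average (RMA) and correlations from 0.989 to 0.996. *Ppara* had a log2 fold change of -0.89 (SE 0.0488, adjusted p = 1.2e-06 from limma), with no overlap between the genotypes. Its probe set still read a mean of 10.27 in *Ppara*-/- livers, above every array median, beside 11.16 in *Ppara*+/+ livers. Mean levels of 8 hepatocyte genes lay between 13.61 and 13.70 on the 12 arrays, far above the array medians, as for a liver sample. When limma weighted arrays by their fit, the female *Ppara*+/+ pup of replicate 7 received the lowest weight of the 12 (0.420) and the male *Ppara*-/- pup of replicate 6 the next lowest (0.605). These arrays also had the lowest mean correlations with the other arrays of their genotype, 0.993 each. Leaving out replicate 7 changed which members passed the test and leaving out replicate 6 did not, so many values below are given with and without replicate 7. The study's methods describe pups from 3 litters per genotype, so the 6 pups of a genotype were not from 6 litters. The labels do not give the litter of each pup, so it could not be fitted, and p-values reflect the spread between pups only. In whole tissue, fewer or more cells of a type and less or more RNA per cell cannot be told apart.

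Promoter sequence is shown for the members that passed the test once replicate 7 was left out and that had an entry in the RefSeq promoter table, with *C1qc* added as the neighbour of *C1qb*. Each line holds the 250 bases before the annotated start of transcription, 5′ to 3′ on the strand of the gene, from RefSeq on build GRCm38.p6. All 6 genes lie on the minus strand, *Clec4f* at chr6:83656117-83656366, *Vsig4* at chrX:96293439-96293688, *C1qb* at chr4:136886201-136886450, *C1qc* at chr4:136892915-136893164, *Fcer1g* at chr1:171234350-171234599 and *Axl* at chr7:25788734-25788983. Capitals mark GAGGAA on either strand (TTCCTC on the other), a sequence that PU.1, an ETS factor, binds. Other sequences that ETS factors bind were not marked.
Clec4f: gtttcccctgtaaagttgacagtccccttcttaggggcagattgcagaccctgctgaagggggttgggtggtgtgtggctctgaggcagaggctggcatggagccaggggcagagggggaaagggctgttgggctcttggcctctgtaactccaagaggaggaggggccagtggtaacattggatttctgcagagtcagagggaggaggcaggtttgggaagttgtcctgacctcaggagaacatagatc
Vsig4: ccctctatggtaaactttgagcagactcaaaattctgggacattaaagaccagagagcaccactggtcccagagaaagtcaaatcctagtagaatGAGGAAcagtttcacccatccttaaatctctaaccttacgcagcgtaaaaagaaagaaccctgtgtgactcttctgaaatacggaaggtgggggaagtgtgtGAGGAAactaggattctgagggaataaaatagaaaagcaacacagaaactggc
C1qb: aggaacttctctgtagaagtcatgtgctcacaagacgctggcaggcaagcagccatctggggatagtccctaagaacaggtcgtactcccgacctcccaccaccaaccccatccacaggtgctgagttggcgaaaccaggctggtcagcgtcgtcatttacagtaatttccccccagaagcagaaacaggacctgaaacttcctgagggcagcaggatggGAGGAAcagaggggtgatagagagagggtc
C1qc: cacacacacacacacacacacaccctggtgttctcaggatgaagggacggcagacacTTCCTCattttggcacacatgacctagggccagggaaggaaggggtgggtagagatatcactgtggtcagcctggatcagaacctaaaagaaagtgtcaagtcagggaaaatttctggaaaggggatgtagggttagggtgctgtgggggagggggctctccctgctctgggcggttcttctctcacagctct
Fcer1g: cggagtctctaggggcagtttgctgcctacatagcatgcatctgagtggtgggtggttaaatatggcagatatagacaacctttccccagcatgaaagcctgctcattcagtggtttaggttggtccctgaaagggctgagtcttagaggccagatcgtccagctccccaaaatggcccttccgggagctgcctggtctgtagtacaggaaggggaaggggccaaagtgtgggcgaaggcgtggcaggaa
Axl: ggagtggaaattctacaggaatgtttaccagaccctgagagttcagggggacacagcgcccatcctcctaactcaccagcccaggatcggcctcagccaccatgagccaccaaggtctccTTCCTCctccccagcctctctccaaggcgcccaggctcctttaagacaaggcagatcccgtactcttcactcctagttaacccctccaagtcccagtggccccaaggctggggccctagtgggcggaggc
GAGGAA was found in 2 places before *Vsig4*, 155 and 53 bases before the start, and in 1 place each before *C1qb* (30 bases), *C1qc* (193 bases) and *Axl* (130 bases). It was not found before *Clec4f* or *Fcer1g* in these windows. Over windows that also reach 50 bases past the start, 17 of the 30 members with an entry (56.7%) held GAGGAA on either strand, beside 31.3% of 27025 genes in the table. Counted by window, 54.5% of 33 member windows and 28.3% of 32851 windows held it. The direct repeat that PPARα binds with its partner RXR, AGGTCA and again AGGTCA with 1 base (N) between them, was found on either strand in 0 of the 30 members and in 13 of the 27025 genes (0.0481%). An exact repeat this rare would be missing from almost any 30 genes, so its absence says nothing particular about the members. A match of letters is a description of the window and does not show that a factor was bound there.

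In *Ppara*-/- livers 35 of the 37 genes had a higher mean than in *Ppara*+/+ livers, where 45.1% of all genes did. The median log2 fold change of the 37 was 0.14, which is 1.10-fold, while the median of all genes was -0.01. At an adjusted p under 0.05 in limma 0 members were called higher, where 1.99% of all genes were, and 0 were called lower, where 1.12% were. At an unadjusted p under 0.05 the counts were 17 higher and 0 lower, beside 9.27% and 7.89% of all genes. An exact Mann-Whitney test had 16 members higher and 0 lower without adjustment. With adjustment over all probe sets it could pass none, since its smallest possible p for 6 against 6 arrays, 0.00216, became 0.0691.

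One array among the 6 wild types weighed on this comparison. Without *Ppara*+/+ replicate 7, 7 members were called higher, *Clec4f*, *Vsig4*, *Csf1r*, *Adgre1*, *C1qb*, *Fcer1g* and *Axl*, where 3.6% of all genes were, and 0 were called lower, where 1.75% were. The count at an unadjusted p under 0.05 became 29 of 37 higher, beside 12.4% of all genes, and 0 lower, beside 10.2%. In 12 members the 6 *Ppara*-/- values then all exceeded the 5 remaining *Ppara*+/+ values, beside 4.73% of all genes, and in 0 members they all fell below them, beside 2.51%. The median log2 fold change became 0.17, with -0.01 over all genes. Replicate 7 was the highest of the 6 wild-type arrays for 32 of the 37 members, as it was for 26.0% of all genes. It lay above the *Ppara*-/- mean for 23 members, and for 50.8% of all genes. Leaving out the array that was highest among the wild types moves the fold changes of those 32 members upward by construction. The choice of replicate 7 rests on its effect on the calls, and leaving out any other single array gave 0 called members. Other alternatives weakened the same genes. The highest adjusted p in limma was 0.155 for *Clec4f*, 0.301 for *Vsig4*, 0.204 for *Csf1r* and 0.480 for *Adgre1*. It was 0.289 for *C1qb*, 0.257 for *Fcer1g* and 0.272 for *Axl*.

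**Figure D1:**
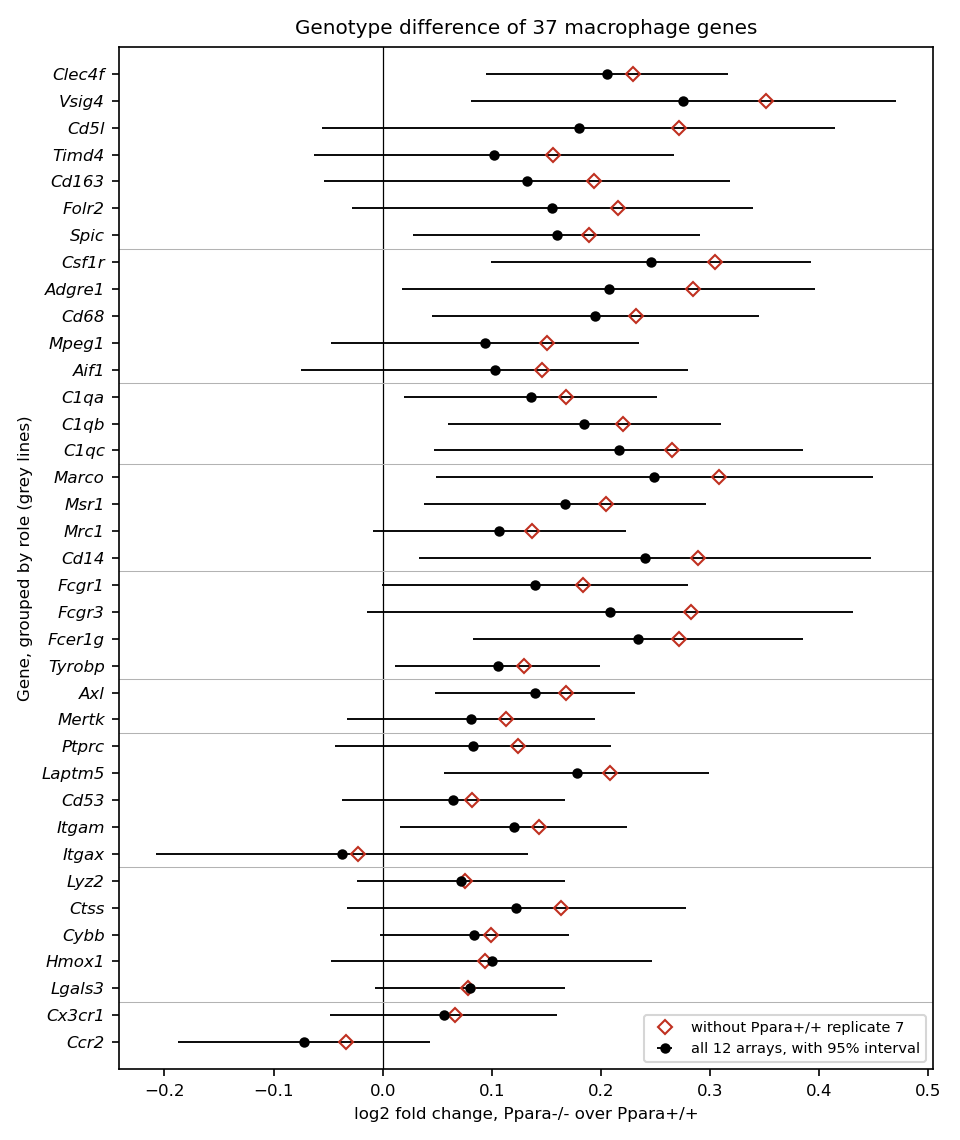
Log2 fold change of each measured macrophage gene, *Ppara*-/- over *Ppara*+/+, grouped by role between grey lines. Black points are the limma estimates from all 12 arrays with their 95% confidence intervals, and red diamonds are estimates without *Ppara*+/+ replicate 7; 35 of the 37 black points lie to the right of 0, and *Itgax* and *Ccr2* lie to its left.

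The members tended to be high or low on the same arrays. For each array the deviation of a gene is its signal minus the mean of that gene over the 12 arrays, and the median over the 37 members summarises the array. In *Ppara*-/- livers this median was 0.05 in replicate 4, 0.01 in replicate 5 and 0.09 in replicate 6, the males, and 0.12 in replicate 10, 0.09 in replicate 11 and 0.02 in replicate 12, the females. In *Ppara*+/+ livers it was -0.04, -0.04 and -0.15 in the males of replicates 1, 2 and 3, and 0.10, -0.12 and -0.18 in the females of replicates 7, 8 and 9. All 6 *Ppara*-/- arrays were therefore above 0 and 5 of the 6 *Ppara*+/+ arrays below it, with replicate 7 above every *Ppara*-/- array but replicate 10. The means were 0.07 ± 0.04 and -0.07 ± 0.10 (SD, n = 6 each), a difference of 0.14. The low end was shared as well, since the lowest of the 12 values fell in *Ppara*+/+ replicate 3 (11 members), 8 (5 members) or 9 (15 members) for 31 of the 37, beside 25.6% of all genes. The highest value fell most often in *Ppara*-/- replicate 10 (13 members, beside 6.62% of all genes), in *Ppara*-/- replicate 6 (9 members, beside 14.7%) and in *Ppara*+/+ replicate 7 (8 members, beside 11.6%). Replicates 6 and 7 were the arrays most often highest over all genes as well. The shared low end was not particular to the members. *Ppara*+/+ replicates 3, 8 and 9 also had the lowest median deviations for endothelial markers (-0.11, -0.14 and -0.15). The same held for stellate cell and fibroblast markers (-0.13, -0.10 and -0.18). For erythroid markers these arrays were the highest (0.20, 0.22 and 0.20), while granulocyte markers were lowest in *Ppara*+/+ replicate 1 (-0.12).

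**Figure D2:**
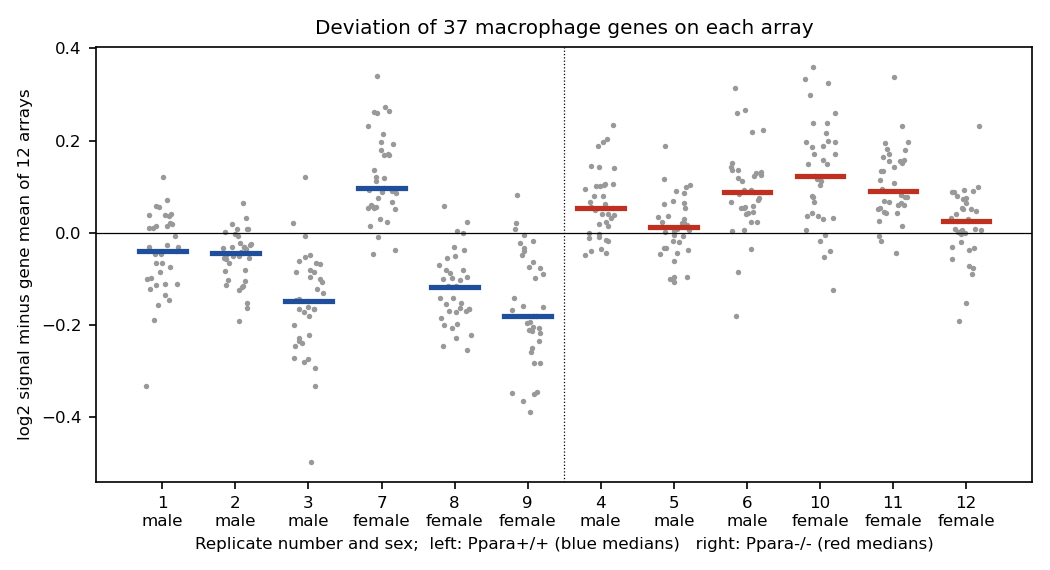
Deviation of the 37 macrophage genes on each array, in log2 units on the vertical axis, with 1 grey point per gene and a horizontal bar at the median (blue for *Ppara*+/+, red for *Ppara*-/-). Arrays are named by replicate number and sex; the 6 red medians run from 0.01 to 0.12 and the blue ones from -0.18 to -0.04 except replicate 7, at 0.10.

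The 7 members grouped as genes of Kupffer cell identity, some shared with other tissue macrophages, were all higher on average in *Ppara*-/- livers. The median of their log2 fold changes was 0.16, and 3 were higher at an unadjusted p under 0.05 in limma. Over all genes the share higher at that limit was 9.27%, which stands beside the groups below as well. *Clec4f*, the C-type lectin regarded as the most specific mark of mouse Kupffer cells, ran from 10.06 to 10.28 in *Ppara*-/- livers (median 10.16) and from 9.86 to 10.05 in *Ppara*+/+ livers (median 9.96). It was the only member whose genotypes did not overlap, where 2.88% of all genes were separated in this direction and 1.43% in the other. Such separation, in 1 of 37 members, was thus about as frequent as over all genes. Its log2 fold change was 0.21 (SE 0.0506, 95% interval 0.09 to 0.32), with the smallest adjusted p of the members, 0.0635, and 0.0311 without replicate 7. Over 21 alternatives, with the Mann-Whitney test left aside, the adjusted p of *Clec4f* lay between 0.0279 and 0.155.

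*Vsig4*, the complement receptor with which Kupffer cells catch opsonised bacteria, lay between 10.78 and 11.09 in *Ppara*-/- livers (median 10.87) and between 10.41 and 11.01 in *Ppara*+/+ livers (median 10.58). The overlap came from replicate 7 alone, since the other 5 wild-type values reached only 10.64. Its log2 fold change of 0.28 was the largest of the members (SE 0.0890, adjusted p = 0.164), and it was 0.35 without that array (adjusted p = 0.0136). *Spic*, a transcription factor of iron-recycling macrophages, ran from 8.35 to 8.63 in *Ppara*-/- livers (median 8.39) and from 8.19 to 8.42 in *Ppara*+/+ livers (median 8.28), with a log2 fold change of 0.16 and adjusted p = 0.237. Without replicate 7 its genotypes no longer overlapped, though its adjusted p was still 0.111. The remaining 4 of this group overlapped more widely. *Cd5l*, a secreted protein of tissue macrophages, differed by 0.18 (adjusted p = 0.478) and had its highest value of all in wild-type replicate 7 (11.03), above the *Ppara*-/- range of 10.66 to 10.88. The log2 fold change was 0.16 for *Folr2*, a folate receptor (adjusted p = 0.422), and 0.13 for *Cd163*, the haptoglobin-haemoglobin scavenger receptor (adjusted p = 0.516). It was 0.10 for *Timd4*, a phosphatidylserine receptor that marks macrophages of embryonic origin (adjusted p = 0.586). In each of these 4 genes all 6 *Ppara*-/- values lay above the wild-type mean while none lay above replicate 7.

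The group around the growth factor receptor of macrophages had 5 genes with a median of 0.19, and 3 were at an unadjusted p under 0.05. *Csf1r*, which transmits the CSF1 and IL-34 signals on which macrophages depend, ran from 10.77 to 10.96 in *Ppara*-/- livers (median 10.85) and from 10.49 to 10.86 in *Ppara*+/+ livers (median 10.58). Apart from replicate 7, the highest wild-type value was 10.69, below all 6 knock-outs. Its log2 fold change was 0.25 (SE 0.0669, adjusted p = 0.0925), and without that array 0.30 (adjusted p = 0.00559, the smallest of the members there). *Adgre1*, which encodes the surface antigen most used to recognise mouse macrophages, ran from 10.60 to 10.78 (median 10.66) against 10.28 to 10.83 (median 10.42). Here the top value of all 12 belonged to replicate 7. The log2 fold change was 0.21 (adjusted p = 0.289) and 0.28 without that array (adjusted p = 0.0237). *Cd68*, a lysosomal glycoprotein of macrophages, differed by 0.19 (adjusted p = 0.201), *Aif1*, an actin-binding protein, by 0.10 (adjusted p = 0.613) and *Mpeg1*, the pore-forming perforin-2, by 0.09 (adjusted p = 0.551).

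All 3 chains of C1q, the recognition molecule of the classical complement pathway, were higher on average in *Ppara*-/- livers, and macrophages are a main source of C1q in the body. The 3 genes lie side by side on chromosome 4 in the order *C1qb*, *C1qc* and *C1qa*. *C1qb* ran from 11.60 to 11.78 in *Ppara*-/- livers (median 11.69) and from 11.39 to 11.66 in *Ppara*+/+ livers (median 11.48), and 4 of the 6 knock-out values were above every wild-type value. Its log2 fold change was 0.18 (SE 0.0570, adjusted p = 0.144), and 0.22 without replicate 7 (adjusted p = 0.0439). *C1qc* had 10.34 to 10.58 (median 10.44) against 10.05 to 10.47 (median 10.21), a log2 fold change of 0.22 with adjusted p = 0.209. *C1qa* had 9.78 to 9.91 (median 9.81) against 9.52 to 9.85 (median 9.71), a log2 fold change of 0.14 with adjusted p = 0.254. Without replicate 7 neither passed (adjusted p = 0.0646 and 0.0839), though *C1qa* then showed no overlap between the genotypes.

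**Figure D3:**
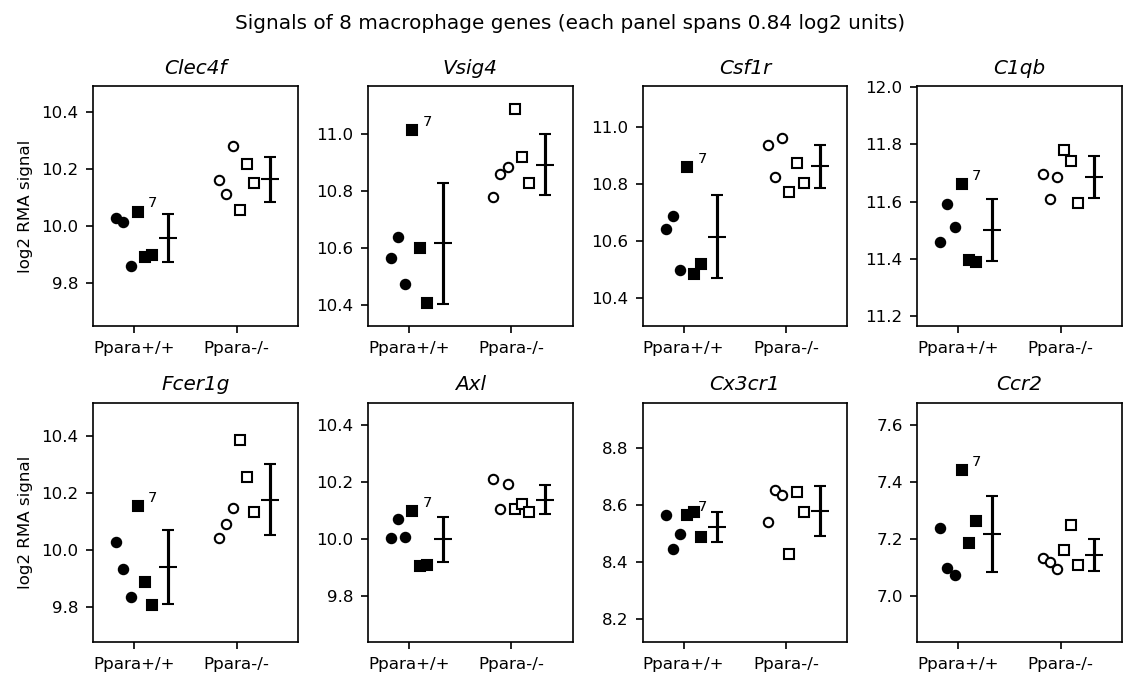
Log2 RMA signals of 8 macrophage genes on the 12 arrays, with a vertical axis of the same length in every panel. Filled symbols are *Ppara*+/+ and open symbols *Ppara*-/-, circles are males and squares females, the bars give mean ± SD of the 6 arrays per genotype, and 7 marks *Ppara*+/+ replicate 7; the genotypes are apart for *Clec4f*, meet mainly through that array for *Vsig4*, *Csf1r* and *Axl*, and lie over each other for *Cx3cr1* and *Ccr2*.

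Scavenger and pattern receptors, which bind modified lipoproteins and microbial surfaces, had the highest group median, 0.20 over 4 genes, and 3 of them had an unadjusted p under 0.05. *Marco*, a collagenous scavenger receptor, ran from 9.17 to 9.56 in *Ppara*-/- livers (median 9.28) and from 8.85 to 9.38 in *Ppara*+/+ livers (median 9.08). The difference was 0.25 (SE 0.0915, adjusted p = 0.224), and 0.31 without replicate 7, after which the genotypes did not overlap (adjusted p = 0.0674). *Msr1*, the class A scavenger receptor, differed by 0.17 (adjusted p = 0.205) and *Mrc1*, the mannose receptor that sinusoidal endothelium carries too, by 0.11 (adjusted p = 0.377). *Cd14*, the co-receptor for bacterial lipopolysaccharide, ran from 6.72 to 7.14 against 6.33 to 6.995 and differed by 0.24 (adjusted p = 0.258). Both of its means lay below the lowest array median, as for 42.4% of all genes, so its probe set was dim in these livers.

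Among Fc receptors and the adaptors through which they signal, the median was 0.17 over 4 genes, with 2 at an unadjusted p under 0.05. *Fcer1g*, the shared γ chain that carries the activation motif, lay between 10.04 and 10.39 in *Ppara*-/- livers (median 10.14) and between 9.81 and 10.16 in *Ppara*+/+ livers (median 9.91). Only 2 knock-out values exceeded replicate 7, whereas the other 5 wild types stopped at 10.03. The log2 fold change was 0.23 (SE 0.0689, adjusted p = 0.124) and 0.27 without that array (adjusted p = 0.0497). *Tyrobp*, the DAP12 adaptor, differed by 0.11 (adjusted p = 0.277), *Fcgr3*, a low-affinity IgG receptor, by 0.21 (adjusted p = 0.369), and *Fcgr1*, the high-affinity IgG receptor, by 0.14 (adjusted p = 0.334).

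*Axl* and *Mertk* encode kinases that recognise apoptotic cells through bridging proteins. *Axl* ran from 10.09 to 10.21 in *Ppara*-/- livers (median 10.11) and from 9.90 to 10.10 in *Ppara*+/+ livers (median 10.004), and 5 of the 6 knock-out values lay above every wild-type value. Its log2 fold change was 0.14 (SE 0.0419, adjusted p = 0.132), and 0.17 without replicate 7 (adjusted p = 0.0283). *Mertk* had 9.82 to 10.02 against 9.71 to 9.95, a difference of 0.08 (adjusted p = 0.514) with wide overlap.

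The members that most leukocytes or myeloid cells at large share were 5 surface and adhesion genes. Their median was 0.08, with 2 at an unadjusted p under 0.05. *Laptm5*, a lysosomal membrane protein of blood cells, ran from 11.14 to 11.35 in *Ppara*-/- livers (median 11.24) and from 10.91 to 11.20 in *Ppara*+/+ livers (median 11.05). It differed by 0.18 (adjusted p = 0.149, and 0.0573 without replicate 7, when the genotypes were apart). *Itgam*, the CD11b integrin chain, differed by 0.12 (adjusted p = 0.261), *Ptprc*, the CD45 phosphatase of all nucleated blood cells, by 0.08 (adjusted p = 0.556), and *Cd53*, a tetraspanin, by 0.06 (adjusted p = 0.571). *Itgax*, the CD11c chain that marks dendritic cells, was dim in both genotypes (5.81 to 6.21 against 5.84 to 6.13) and had a log2 fold change of -0.04 with adjusted p = 0.876. *Itgam* and *Itgax* are neighbours on chromosome 7.

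The effector genes of the lysosome, the oxidative burst and heme breakdown had a median of 0.08 over 5 genes, and none had an unadjusted p under 0.05. *Cybb*, the catalytic subunit of the phagocyte NADPH oxidase, ran from 11.50 to 11.66 against 11.36 to 11.56, a difference of 0.08 (adjusted p = 0.349), and was apart without replicate 7. *Lyz2*, the lysozyme of macrophages and granulocytes, had 12.06 to 12.25 against 11.94 to 12.12, a difference of 0.07 (adjusted p = 0.488); it has a close paralogue, *Lyz1*, and whether the probe set separates them was not tested. *Ctss*, a cysteine protease that trims the invariant chain, differed by 0.12 (adjusted p = 0.462). *Hmox1*, which opens the heme ring, differed by 0.10 (adjusted p = 0.542) and *Lgals3*, a galectin of activated macrophages, by 0.08 (adjusted p = 0.380).

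The pair of chemokine receptors that guide monocytes had values close to 0, with a median of -0.01. *Ccr2*, which brings inflammatory monocytes into tissue, ran from 7.09 to 7.25 in *Ppara*-/- livers (median 7.13) and from 7.07 to 7.44 in *Ppara*+/+ livers (median 7.21). Its log2 fold change was -0.07 (95% interval -0.19 to 0.04, adjusted p = 0.580), and the upper end of the wild-type range was again replicate 7. The probe set of *Ccr2* was dim, with a *Ppara*-/- mean (7.14) below the lowest array median (7.16). *Cx3cr1*, the fractalkine receptor, ran from 8.43 to 8.65 against 8.45 to 8.58, with a log2 fold change of 0.06 (95% interval -0.05 to 0.16, adjusted p = 0.642). The fold changes of different members were not tested against each other.

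Within each sex the members were compared over 3 pups of each genotype. In males the median log2 fold change of the 37 members was 0.12 and in females 0.15, and in each sex 35 of 37 were above 0. Adjusted over all probe sets 0 members passed in limma in either sex (smallest adjusted p 0.343 in males and 0.321 in females), where 0.461% and 0.321% of all genes were called higher and 0.466% and 0.487% lower. At an unadjusted p under 0.05, 6 were higher in males, *Clec4f*, *Csf1r*, *C1qa*, *Cd14*, *Tyrobp* and *Axl*, beside 5.5% of all genes, and 0 lower, beside 4.23%. In females 7 were, *Clec4f*, *Cd68*, *C1qb*, *C1qc*, *Fcer1g*, *Laptm5* and *Lgals3*, beside 5.35% of all genes, and again 0 lower, beside 4.43%. The exact Mann-Whitney test was not run within a sex. Median deviations of the male arrays did not overlap, 0.01 to 0.09 in *Ppara*-/- against -0.15 to -0.04 in *Ppara*+/+, while those of the female arrays did, 0.02 to 0.12 against -0.18 to 0.10, the last value being replicate 7. With 3 arrays per genotype, such a split was not particular to the members. Male arrays were also apart for endothelial markers (0.056 to 0.117 against -0.114 to -0.001). They were apart for erythroid markers too (-0.222 to -0.040 against 0.085 to 0.198), but not for stellate or granulocyte markers. An interaction of genotype and sex was found for 0 members in limma, 0 also at an unadjusted p under 0.05 (smallest p 0.0913, *Lgals3*), where 0% of all genes passed and 1.02% and 0.772% had an unadjusted p under 0.05 in either direction. The median interaction of the members was 0.01. Between males and females 0 members passed in limma, 0 also without adjustment (smallest p 0.0628, *Ccr2*). Over all genes 0.015% were higher and 0.0251% lower in males, or 1.24% and 1.54% without adjustment. The median log2 difference of the members, males minus females, was -0.03.

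Other genes of pathways in which macrophages take part were read from 10 lists, which gave few calls. In whole liver the cells that made these transcripts were not identified. Over all genes 1.99% were called higher and 1.12% lower with all arrays. Among 20 macrophage cytokines and chemokines 2 rose, *Il1rn*, the antagonist of the interleukin-1 receptor, from a range of 9.05 to 9.40 to one of 9.74 to 9.88 (log2 fold change 0.61, adjusted p = 1.1e-04), and *Ccl6*, a chemokine of myeloid cells (0.26, adjusted p = 0.0435). The list's median was 0.06. Among 9 genes of antigen presentation by MHC class II, *Cd40*, a co-stimulatory receptor, rose (0.30, adjusted p = 0.0130) and the median was 0.08. Of 14 lysosomal genes *Ctsl*, a cathepsin also made by hepatocytes, rose (0.28, adjusted p = 6.9e-04; median of the list 0.11). In 11 genes of red cell and heme iron recycling, with a median of -0.04, *Ftl1*, the ferritin light chain, rose (0.15, adjusted p = 0.0411) and *Lrp1*, a receptor for lipoproteins and the heme-hemopexin complex, fell (-0.29, adjusted p = 0.0211). Of 5 genes for C1r, C1s and their relatives and inhibitors *C1rl* rose (0.22, adjusted p = 0.0228, with a list median of 0.17). Without replicate 7, 4 of the 5 were called higher, where 3.6% of all genes were.

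The other 5 pathway lists had no call in limma with all arrays. Beside their counts at an unadjusted p under 0.05, 9.27% of all genes were higher and 7.89% lower at that limit. The median was 0.11 over 15 transcription and growth factors of macrophages, 7 of which had an unadjusted p under 0.05 (6 higher and 1 lower), led by *Maf* (0.14, adjusted p = 0.123) and *Spi1*, the gene of PU.1 (0.21, adjusted p = 0.133). It was 0.13 over 12 Toll-like receptors and partners, 6 of them at an unadjusted p under 0.05, led by *Ly96*, the MD-2 partner of TLR4 (0.53, adjusted p = 0.0635), and *Tlr7* (0.18, adjusted p = 0.0830). Fc receptor and ITAM signalling partners had a median of 0.07 over 13 genes, 2 of them at an unadjusted p under 0.05, *Fgr* (0.21, adjusted p = 0.0975) and *Lcp2* (0.21, adjusted p = 0.126). NADPH oxidase subunits other than *Cybb* had a median of 0.10 over 4 genes, 2 of them at an unadjusted p under 0.05, *Cyba* (0.12, adjusted p = 0.182) and *Ncf4* (0.10, adjusted p = 0.254). Of 27 further macrophage surface and leukocyte genes 25 were above 0, with a median of 0.11 and 9 at an unadjusted p under 0.05, led by *C5ar1* (0.29, adjusted p = 0.0713) and *Fcna* (0.17, adjusted p = 0.0909). Without replicate 7 the counts called higher in these 5 lists became 3, 3, 2, 0 and 2, where 3.6% of all genes were.

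Markers of other liver cells also differed between these arrays, and their part in the result was not tested. At an unadjusted p under 0.05 in limma, 9.27% of all genes were higher and 7.89% lower. All 12 endothelial markers had a log2 fold change above 0, with a median of 0.13, 0 calls and 8 at an unadjusted p under 0.05. Their median deviation ran from 0.01 to 0.12 in *Ppara*-/- livers and from -0.15 to 0.02 in *Ppara*+/+ livers, and *Cdh5* led (0.24, adjusted p = 0.0527). Of 12 stellate cell and fibroblast markers 10 were above 0, with a median of 0.09 and 3 at an unadjusted p under 0.05 (0.01 to 0.11 against -0.18 to 0.10, the last being replicate 7). Granulocyte markers had a median of 0.07 over 14 genes, 13 of them above 0 and 6 at an unadjusted p under 0.05 (-0.07 to 0.17 against -0.12 to 0.05). Erythroid markers went the other way, with 0 of 13 above 0, a median of -0.19 and 11 lower at an unadjusted p under 0.05. Their median deviation was -0.24 to 0.09 in *Ppara*-/- livers and -0.17 to 0.22 in *Ppara*+/+ livers, where replicate 7 held the lowest value. Markers of dividing cells were likewise below 0 in 11 of 11, with a median of -0.12 and 8 lower at an unadjusted p under 0.05 (-0.20 to 0.04 against -0.01 to 0.13). Hepatocyte markers had a median of 0.02 over 8 genes, 1 of them at an unadjusted p under 0.05 (0.00 to 0.03 against -0.03 to 0.00). In limma 0 genes of these 6 lists passed, where 1.99% of all genes were called higher and 1.12% lower. Without replicate 7, 3 endothelial, 1 stellate and 2 granulocyte markers were called higher and 4 erythroid markers lower. Over all genes 3.6% were then called higher and 1.75% lower.

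**Figure D4:**
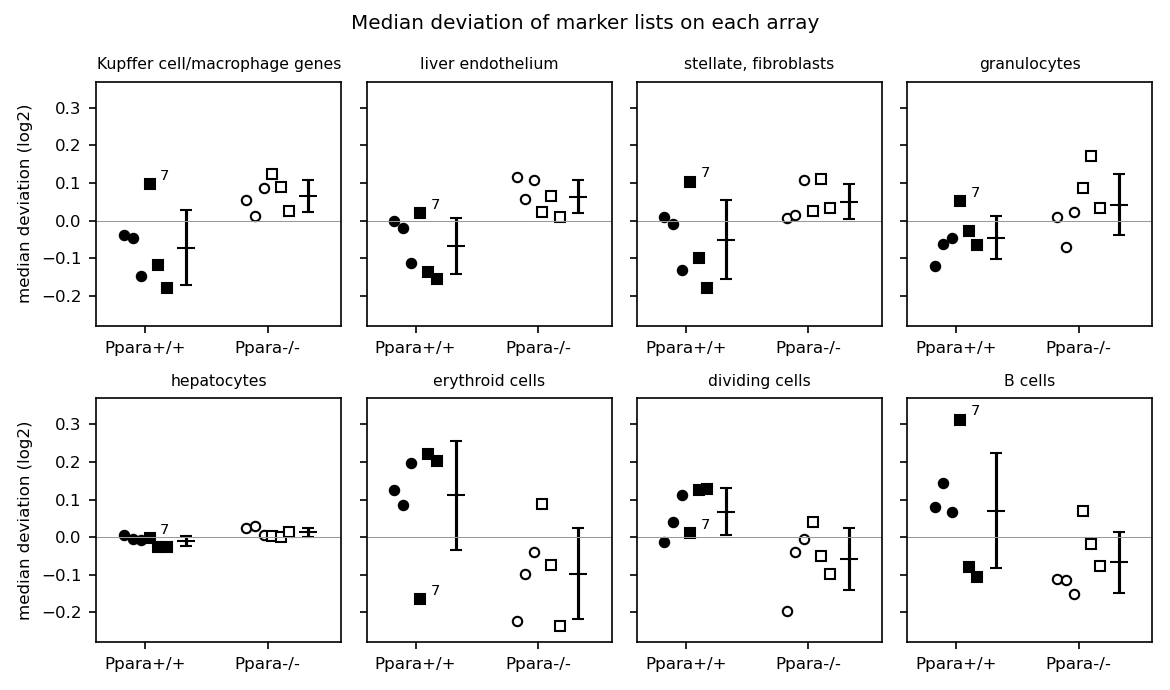
Median deviation of marker lists on each array, in log2 units, for macrophage genes and 7 lists of other cells. Filled symbols are *Ppara*+/+ and open symbols *Ppara*-/-, circles are males and squares females, bars are mean ± SD of 6 arrays, and 7 marks *Ppara*+/+ replicate 7; the *Ppara*-/- means are above the *Ppara*+/+ means in the upper 4 panels and below them for erythroid, dividing and B cells.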

How the data were processed

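RNA of whole livers from 12 pups was hybridised to Affymetrix MoGene 1.0 ST arrays, 1 array per pup. The deposited table holds a log2 signal for each probe set, which the authors normalized and summarised with RMA, whose version the sources used here do not state. The values were used as deposited. RMA brings the probe signals of all arrays to 1 distribution, so a shift shared by all transcripts is not seen. Precision is limited by how many arrays there are. Of 35556 probe sets, 21789 name 1 gene, 1621 several and 12146 none here. Where several probe sets named a gene alone, the one with the highest mean was used.

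Every probe set was fitted with limma 3.58.1 in R 4.3.3 (lmFit and eBayes) on genotype and sex, with 9 residual and 2.49 prior degrees of freedom. Benjamini-Hochberg adjustment covered all probe sets, and a call is an adjusted p under 0.05. Sex and its interaction with genotype were tested likewise, the latter and the contrasts within a sex from a fit of 4 groups. Lists are described by counts and medians without a test. The members, lists and tests were chosen with earlier results of these data known. All members and *Ppara* are named, as are, from each other list, up to 3 called genes per direction or, with none called, up to 2 with the smallest p.

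Alternatives were a fit without sex, 4 groups, quantile normalization, median centring, a filter at the 40th percentile of signal, array weights, a variance trend fitted robustly, only probe sets of 1 gene, the mean over probe sets of a gene, an exact two-sided Mann-Whitney test, a minimum change of 1.3-fold or of 1.3 on the log2 scale, no adjustment, and leaving out each array. The calculation was tested on simulated data. Promoters and gene names are from RefSeq (GRCm38.p6), and 99.6% of probe sets of 1 gene matched its gene table.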

Additional observations from a re-analysis of the deposited data

Results flagged for a closer look

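For each member and for the median deviation of the members, the 6 arrays of each genotype were searched for 1 array that lay apart from the other 5 by more than Dixon's 95% limit. This was so in 4 of 76 such groups, where chance at 1 in 20 gives 3.8. The median deviation of the members was in neither genotype among the 4. *Mpeg1* was low in *Ppara*-/- replicate 12, at 9.82 beside 9.91 to 9.93 in the other 5. *Ptprc* was high in *Ppara*+/+ replicate 7, at 9.42 beside 9.11 to 9.22, and so was *Itgam* in the same array, at 8.91 beside 8.70 to 8.78. *Lgals3* was low in *Ppara*+/+ replicate 8, at 8.90 beside 8.99 to 9.05.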

How the results depend on the processing

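The count of members called higher, 0 of 37 with 1.99% of all genes, became 1 without the sex covariate (2.21% of all genes), with quantile normalization (2.14%) and with a robust variance trend (3.05%), each time *Clec4f*. It became 2 with the filter at the 40th percentile (36 members left, 5.03%), with only probe sets of 1 gene (3.02%) and with the mean over probe sets of a gene (3.03%), each time *Clec4f* and *Csf1r*; these settings test fewer features. It was 6 with array weights (3.55%), 17 without adjustment (9.27%), and 0 to 7 when each array was left out, 7 without *Ppara*+/+ replicate 7 (3.6%) and 0 without each of the others. Without adjustment 6 members were called in males and 7 in females. Under all alternatives run, of which the adjusted Mann-Whitney test could make no call, 0 members were called lower and 0 had an interaction. The median log2 fold change ran from 0.11 to 0.17. Over 22 alternatives per member, direction and call held in 790 comparisons, 22 gained a call and 1 changed sign, *Itgax*, which ran from -0.089 to 0.0048 when each array was left out and was above 0 without *Ppara*-/- replicate 12. No paired analysis was possible because the replicate numbers are not shared between the genotypes. Signal limited 2 members, *Itgax* and *Cd14*, whose means were below the lowest array median in both genotypes. Below that median in 1 genotype were *Cd163* and *Aif1* (*Ppara*+/+ means 7.15 and 7.09) and *Ccr2* (*Ppara*-/- mean 7.14).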

Other observations

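Other blood and liver cells gave values that belong to no comparison above, and in limma 0 genes of these lists were called. Over 8 genes of T cells and natural killer cells the median log2 fold change was -0.06, with 0 at an unadjusted p under 0.05. Over 7 B cell genes it was -0.15, with 3 lower at that limit, led by *Pax5* (-0.19, adjusted p = 0.249), beside 7.89% of all genes. *Ppara*+/+ replicate 7 had the highest B cell value, a median deviation of 0.31, where the other wild types ran up to 0.14. Over 7 genes of monocytes and dendritic cells the median was 0.05, over 4 of megakaryocytes 0.04, over 5 of bile duct cells 0.04 and over 7 of mast cells and basophils -0.01.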
